A study of Macaca mulatta with 27 samples.

Results

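The BCL2 family of apoptosis regulators was followed in rhesus PSCs through 10 of its genes, which were chosen by symbol: BCL2, BCL2L1, MCL1, BAX, BAK1, BCL2L11, BBC3, PMAIP1, BID, and BIK. All 10 were found among the 17967 gene symbols of the count tables, and all 10 passed the filter on low counts in every comparison. RNA-seq was performed on 27 libraries labelled as rhesus ESCs, 6 primed and 3 for each of the 7 protocols meant to bring primed cells to the naive state, namely TL2i, TL-CDK8i, LCDM (EPS), t2iLGöY, E-NHSM, 4i/L/b, and NHSM-v. According to the study's methods, all groups derived from the same clone of the LyonES embryonic stem cell line, which carries a tauGFP transgene driven by the ubiquitous CAG promoter and a lentiviral STAT3-ERT2, a STAT3 that is active only with tamoxifen. TL2i cells received tamoxifen, LIF, and inhibitors of MEK and GSK3β. TL-CDK8i cells received tamoxifen and LIF with CNIO-47799, an inhibitor of CDK8 and CDK19, in place of those inhibitors. The other 5 protocols were used without tamoxifen. The methods also describe different passaging, as clumps for primed cells and as single cells after enzymatic treatment for the 7 protocols, so that protocol and passaging cannot be told apart. The study followed the survival of such cells after injection into embryos by counts of GFP-positive cells. A ROCK inhibitor did not improve colonization by NHSM-v and t2iLGöY cells. BCL2 was overexpressed in human naive iPSCs only, where more embryos then held donor cells. The libraries here came from cultured cells before any injection, and a single clone stands for rhesus PSCs in general.

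BCL2 family proteins decide whether the outer mitochondrial membrane stays intact. The anti-apoptotic members BCL2, BCL-XL (the product of BCL2L1), and MCL1 bind and hold back the effectors BAX and BAK1, which form pores in the membrane when released. The BH3-only proteins BIM (BCL2L11), PUMA (BBC3), NOXA (PMAIP1), BID, and BIK sense damage or withdrawal of growth factors, and bind the anti-apoptotic members or activate the effectors directly. NOXA binds mainly MCL1, whereas BIM and PUMA bind all of the anti-apoptotic members. Pluripotent stem cells are known as cells that are close to the threshold of apoptosis. Several of these proteins, MCL1 and NOXA above all, are turned over rapidly and controlled after translation, so that mRNA levels are only part of their regulation.

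The libraries held between 7111886 and 20760914 counts (median 12201171). A count of 3, taken as the detection floor, corresponded to 0.138 to 0.422 CPM depending on the library. The labels do not state that the libraries of a group came from separate cultures, so p-values measure only the spread between these libraries, which may be technical. The pluripotency markers matched the label in primed and E-NHSM cells, where the summed level of 10 such genes was 7368 to 8561 CPM and 7861 to 8034 CPM. That sum was 1993 to 2746 CPM in TL-CDK8i cells and 196 to 652 CPM in the other 5 protocols. Different genes carried it, since DNMT3B averaged 3115 CPM in primed cells. In LCDM (EPS) cells SOX2 averaged 322 CPM and DNMT3B 96.8 CPM. POU5F1 averaged 1185 CPM in primed, 1363 CPM in E-NHSM, and 498 CPM in TL-CDK8i cells. Its mean was 6.43 CPM in TL2i, 3.09 CPM in LCDM (EPS), 1.17 CPM in t2iLGöY, 0.905 CPM in 4i/L/b, and 0.296 CPM in NHSM-v cells. By POU5F1, these last 5 groups did not match their label as ESCs. NANOG was at or under the floor in NHSM-v, 4i/L/b, t2iLGöY, and LCDM (EPS) cells. Summed mesenchymal markers, 9 of 10 found, were 1165 to 2376 CPM in primed cells, 406 to 452 CPM in E-NHSM, 768 to 990 CPM in LCDM (EPS), and 2964 to 15326 CPM in the remaining 5 protocols. Of the 9, LUM and DCN were at or under the floor in primed, E-NHSM, and t2iLGöY cells. The median log2 fold change of the tested mesenchymal markers was 0.21 in LCDM (EPS), where the sum was lower, and 0.50 in t2iLGöY cells. The mesenchymal sum thus does not show the change of each marker. Summed neural markers, 10 of 10 found, were 2492 to 2757 CPM in primed cells, 7282 to 7599 CPM in LCDM (EPS), 4643 to 5125 CPM in t2iLGöY, 2970 to 3979 CPM over TL2i, NHSM-v, and 4i/L/b, 2192 to 2312 CPM in TL-CDK8i, and 1332 to 1492 CPM in E-NHSM cells. Most of the neural sum in primed cells was NES, with a mean of 2437 CPM. NES averaged 1290 CPM in E-NHSM, 1876 CPM in TL-CDK8i, 2358 CPM in TL2i, and 3022 CPM in LCDM (EPS) cells. The median log2 fold change of the tested neural markers ran from -0.40 in E-NHSM to 5.79 in t2iLGöY. It was 0.73 in TL-CDK8i and 2.57 in TL2i cells, so the sum does not show the change of the other markers. Markers of dividing cells summed to 4249 to 4858 CPM in primed cells and to 2145 to 3955 CPM in the protocols. Blood cell markers did not exceed a sum of 9.04 CPM in any library. These values differ between the same groups as the family members described here, and their part in those differences was not tested. In bulk RNA, fewer cells of a type and less RNA per cell cannot be told apart.

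To ask which members differ between a protocol and primed cells, the 3 libraries of a protocol were set against all 6 primed ones. The most widespread differences were lower MCL1, in 6 of 7 protocols, lower PMAIP1, in 5 of 7, and higher BCL2L11, in 5 of 7. The share of all genes called in as many protocols was not computed, so these counts do not set the members apart from other genes. BCL2 and BBC3 passed edgeR's test in 0 of 7, against 1 of 7 each at an unadjusted p of 0.05, and in 1 and 0 with DESeq2. Because the 7 comparisons share the primed libraries, a deviation of those libraries enters all of them.

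The number of members passing edgeR's quasi-likelihood test at an adjusted p of 0.05 is given beside the share of all tested genes that did so. In E-NHSM cells, 2 of 10 members were higher (11.1% of all genes) and 3 were lower (15.1%). In NHSM-v cells, 1 member was higher (28.0%) and 4 were lower (30.6%). In 4i/L/b cells, 1 member was higher (26.6%) and 3 were lower (29.0%). In TL2i cells 0 were higher (25.6%), against 2 at an unadjusted p of 0.05 and 1 with DESeq2, and 3 were lower (25.2%). In t2iLGöY cells, 1 member was higher (27.1%) and 4 were lower (27.2%). LCDM (EPS) cells had 0 members higher (28.2%), also at an unadjusted p of 0.05 and with DESeq2, and 4 lower (28.9%). TL-CDK8i cells had 2 higher members (22.3%) and 1 lower (23.8%). The counts of 10 members were not tested against these shares, so they are not a result about the family as a whole. Over all genes, in the E-NHSM comparison, the share of higher genes among all calls was 42.3% with TMM scaling, 52.3% with upper-quartile scaling, and 54.2% with library totals alone. The median log2 fold change of the 10 members ran from -0.65 in NHSM-v to 0.41 in TL-CDK8i cells, whereas the median over all tested genes lay between -0.02 and 0.07 in the 7 comparisons.

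**Figure D1:**
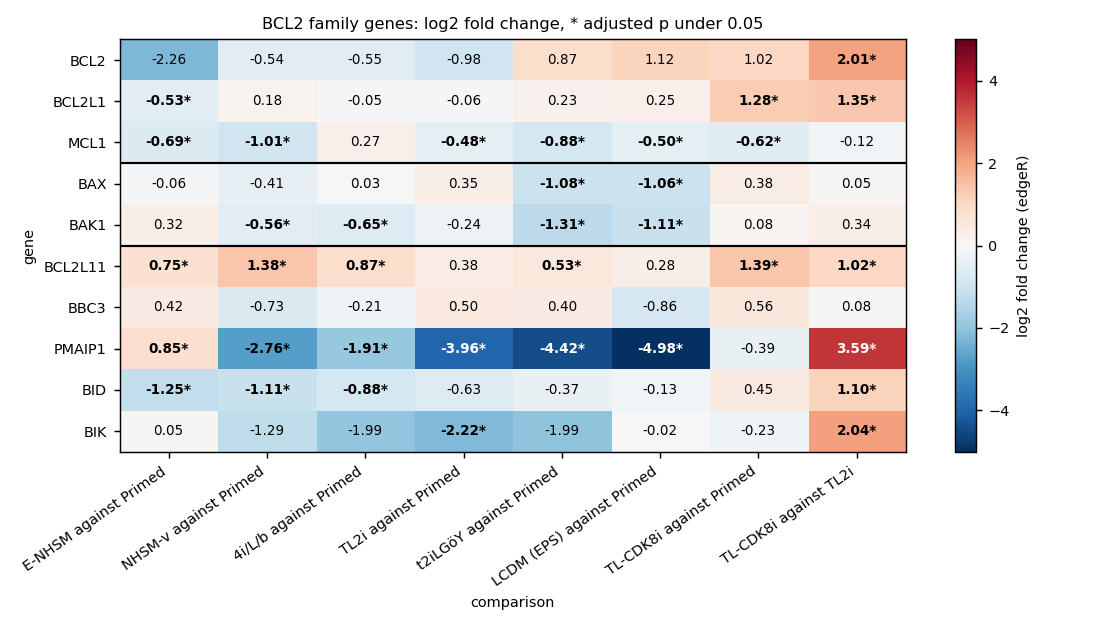
Log2 fold change of each family gene (rows, with anti-apoptotic genes on top, then effectors, then BH3-only genes) in each comparison (columns); colour and printed value give the edgeR estimate, and an asterisk marks an adjusted p under 0.05. PMAIP1 spans the widest range, from -4.98 in LCDM (EPS) to 0.85 in E-NHSM cells against primed cells and 3.59 in TL-CDK8i against TL2i, MCL1 is negative with an asterisk in 6 of the 7 columns against primed cells, and BCL2 has its only asterisk in TL-CDK8i against TL2i.

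Among the anti-apoptotic genes, MCL1, which protects against apoptosis in early embryonic cells, had 416 CPM in the lowest, 597 CPM at the median, and 664 CPM in the highest of the primed libraries. The 3 libraries of NHSM-v cells had 284, 293, and 301 CPM. In t2iLGöY cells the values were 290, 318, and 301 CPM. Both groups lay wholly below the primed range. Levels were 317, 373, and 374 CPM in E-NHSM cells, 402, 374, and 405 CPM in LCDM (EPS) cells, and 367, 387, and 388 CPM in TL-CDK8i cells. These 3 groups too did not overlap the primed libraries, in contrast to TL2i cells with 445, 398, and 386 CPM, whose highest library exceeded the lowest primed one. Log2 fold changes ranged from -1.01 ± 0.11 (SE) in NHSM-v (edgeR, adjusted p = 2.2e-06) to -0.48 ± 0.12 in TL2i (adjusted p = 0.0038). The TL2i call was lost against the primed libraries of letter J alone (adjusted p = 0.0565). 4i/L/b cells stood apart with 736, 674, and 730 CPM, all above the highest primed library, yet the difference of 0.27 ± 0.11 on the log2 scale missed the threshold (adjusted p = 0.0502). It passed in 11 of the 18 alternative analyses, with adjusted p between 0.0031 and 0.0273 in those. MCL1 levels thus ordered the groups from 4i/L/b, the highest and separated from the next, through primed cells to NHSM-v, the lowest, and from primed cells downwards every group overlapped its neighbour.

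BCL2L1, which encodes BCL-XL, was at 50.8 to 78.1 CPM in primed libraries, with a median of 63.6 CPM. TL-CDK8i cells had 136, 181, and 155 CPM, more than any of the other 24 libraries. The increase was 1.28 ± 0.14 on the log2 scale, a 2.42-fold difference (edgeR, adjusted p = 4.0e-06), and it passed the test in all of the alternatives. At the other end, E-NHSM cells had 44.1, 48.2, and 39.3 CPM, all below the primed range. That decrease of -0.53 ± 0.15 on the log2 scale (adjusted p = 0.014) did not hold without E-NHSM replicate 1 (adjusted p = 0.0583), without E-NHSM replicate 3 (0.0997), or against the primed libraries of letter J alone (0.148). The other 5 protocols lay between 55.3 and 83.9 CPM, overlapped the primed libraries, and did not pass the test, with log2 fold changes from -0.06 to 0.25. Against letter J alone, BCL2L1 was called higher in LCDM (EPS) (adjusted p = 0.0134), NHSM-v (0.0210), and t2iLGöY cells (0.0479), and in LCDM (EPS) cells also with library totals alone (0.0326). In the order of levels, only TL-CDK8i at the top and E-NHSM at the bottom were separated from their neighbours.

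BCL2 itself, the founding member and a direct inhibitor of BAX and BIM, had low counts. Primed libraries had 1.17 CPM at the lowest, 3.63 CPM at the median, and 7.06 CPM at the highest, which correspond to 13 to 100 counts. E-NHSM libraries had 0, 1.11, and 1.35 CPM, where the value of 0 allows up to 3 counts. Mean levels were 8.36 ± 2.54 CPM in LCDM (EPS), 8.18 ± 2.46 CPM in TL-CDK8i, and 7.05 ± 1.05 CPM in t2iLGöY cells (SD, n = 3), against 3.94 ± 2.40 CPM in primed cells (SD, n = 6). Every protocol overlapped the primed range. None of the 7 comparisons passed edgeR's test. The log2 fold changes were 1.12 ± 0.54 in LCDM (EPS) (adjusted p = 0.0888), 1.02 ± 0.54 in TL-CDK8i (0.139), 0.87 ± 0.58 in t2iLGöY (0.222), and -2.26 ± 1.04 in E-NHSM (0.125). Standard errors were 0.54 to 1.04 over the 7 comparisons. The decrease in E-NHSM passed with DESeq2 (adjusted p = 0.0337) and with all 8 groups in one fit (0.0145). BCL2 in LCDM (EPS) cells passed against letter J alone (0.0251) and with at least 10 counts in every library (0.0374), and in TL-CDK8i cells against letter J alone (0.0423). All neighbours in the order of BCL2 levels overlapped.

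**Figure D2:**
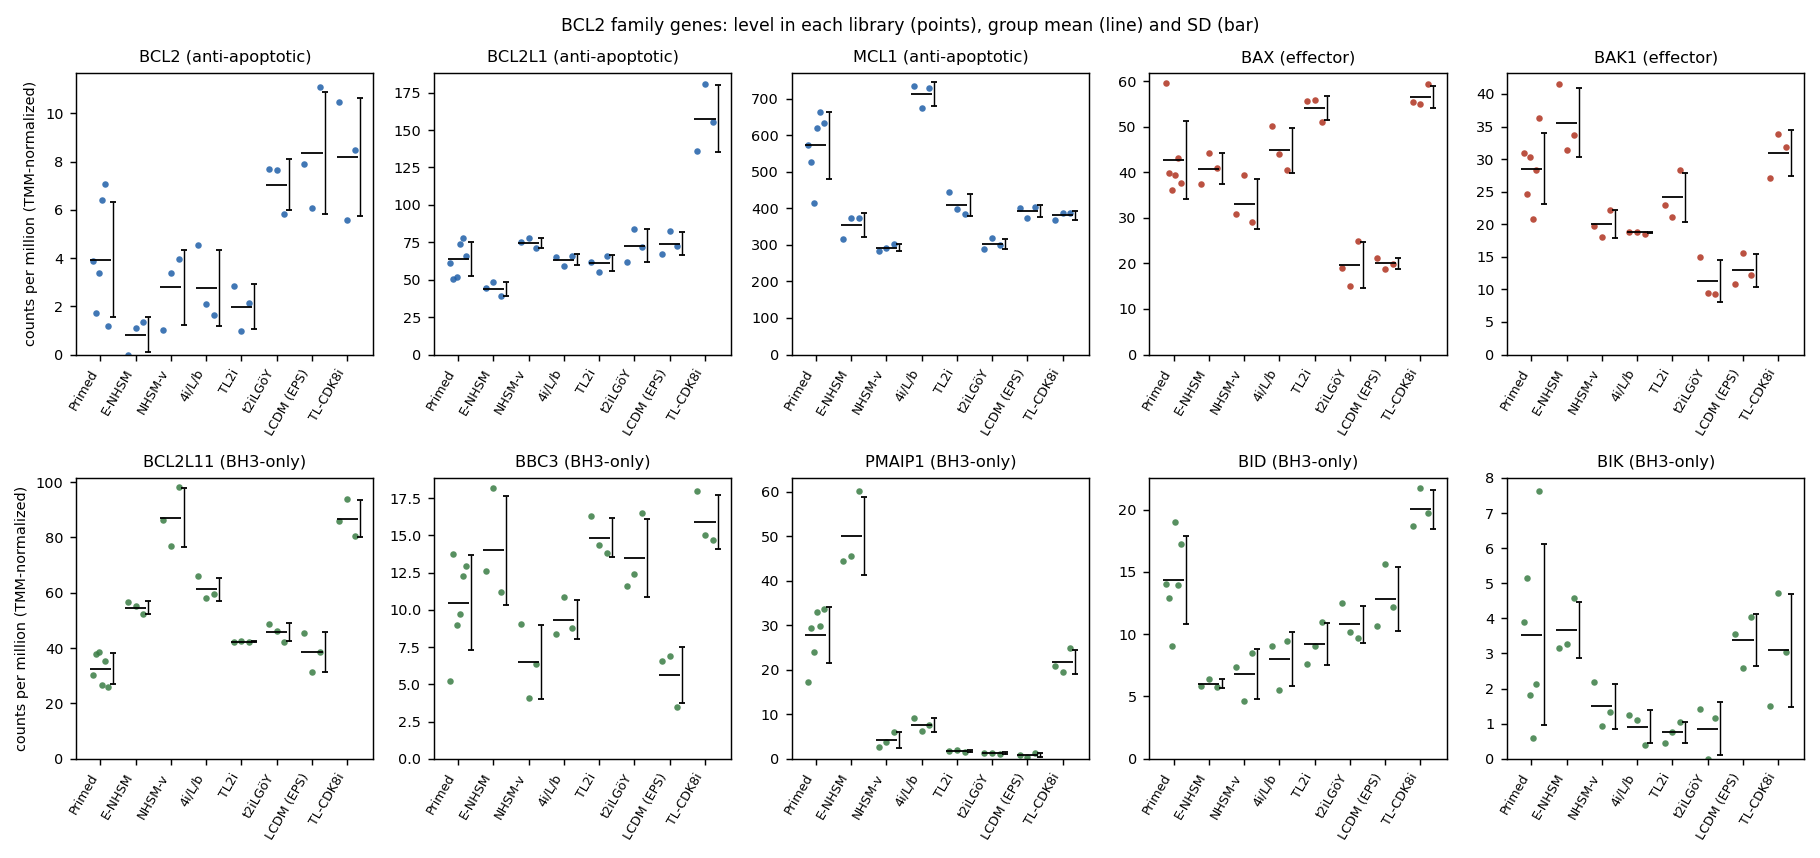
CPM (vertical axes, from 0) of the 10 family genes in each of the 27 libraries (points), by group, with the group mean as a line and the SD as a bar beside it; blue marks anti-apoptotic genes, red effectors, and green BH3-only genes. BCL2L1 is highest in the 3 TL-CDK8i libraries (136 to 181 CPM), BAX and BAK1 are lowest in t2iLGöY and LCDM (EPS) libraries, and PMAIP1 is below 10 CPM in 5 protocols against 17.2 to 33.8 CPM in primed libraries.

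The effectors BAX and BAK1 were both lower in t2iLGöY and LCDM (EPS) cells. BAX had 19.0, 15.1, and 25.0 CPM in t2iLGöY libraries and 21.2, 18.7, and 19.9 CPM in LCDM (EPS) libraries. Primed libraries ranged from 36.2 to 59.5 CPM with a median of 39.6 CPM, so neither group overlapped them. These are also the groups with the highest summed neural markers, at 4643 to 5125 CPM and 7282 to 7599 CPM. In t2iLGöY cells 9 of 10 neural markers were called higher than in primed cells (27.1% of all genes) and 1 lower. All 10 were called higher in LCDM (EPS) cells (28.2%). So were 9 in NHSM-v (28.0%), 8 in 4i/L/b (26.6%), and 7 in TL2i cells (25.6%), where BAX was not called. The part of these markers was not tested. BAX fell by 1.08 on the log2 scale in t2iLGöY (SE 0.22, adjusted p = 6.9e-04) and by 1.06 in LCDM (EPS) cells (SE 0.18, adjusted p = 2.1e-04). TL-CDK8i cells (54.9 to 59.4 CPM) and TL2i cells (50.9 to 55.8 CPM) were above 5 of the 6 primed libraries and below primed J1, at 59.5 CPM. Their log2 fold changes of 0.38 ± 0.16 (adjusted p = 0.0674) and 0.35 ± 0.16 (0.0812) missed the threshold. Each passed in 5 of 18 alternatives. Both did so without primed J1 (adjusted p = 0.0042 and 0.0083), against letter K alone (0.0051 and 0.0066), with at least 10 counts in every library (0.0367 and 0.0438), and with all groups in one fit (0.017 and 0.0437), TL-CDK8i also with DESeq2 (0.0375), and TL2i also with library totals alone (0.0239). NHSM-v had 29.1 to 39.3 CPM and a log2 fold change of -0.41 ± 0.19 (0.0730), and passed without NHSM-v replicate 2 (0.0480) or primed J3 (0.0482) and with all groups in one fit (0.0300). In 4i/L/b and E-NHSM cells the difference was 0.03 and -0.06, with a sign that depended on the processing. The order of BAX levels had gaps only below TL2i and below NHSM-v.

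BAK1, which sits in the mitochondrial membrane where BAX is mostly cytosolic, was at 20.8 to 36.4 CPM in primed cells, with a median of 29.3 CPM. The t2iLGöY libraries had 14.9, 9.51, and 9.22 CPM. LCDM (EPS) libraries had 10.8, 15.6, and 12.3 CPM, and 4i/L/b libraries 18.8, 18.8, and 18.6 CPM. All 9 were below the lowest primed library. BAK1 fell by 1.31 on the log2 scale in t2iLGöY (SE 0.25, adjusted p = 4.7e-04), by 1.11 in LCDM (EPS) (SE 0.22, 6.8e-04), and by 0.65 in 4i/L/b cells (SE 0.19, 0.011). In NHSM-v, with 18.0 to 22.2 CPM, the decrease of -0.56 ± 0.21 passed narrowly (adjusted p = 0.031), and it was lost in 9 alternatives, among them each removal of an NHSM-v library, with adjusted p up to 0.115. E-NHSM (31.4 to 41.5 CPM), TL-CDK8i (27.1 to 33.9 CPM), and TL2i cells (21.1 to 28.3 CPM) overlapped the primed libraries and did not pass. The only gap in the order of BAK1 levels lay between 4i/L/b and LCDM (EPS).

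PMAIP1, which encodes the MCL1 antagonist NOXA, showed the largest differences of the 10 genes. Primed libraries had 17.2 CPM at the lowest, 29.6 CPM at the median, and 33.8 CPM at the highest. In LCDM (EPS) cells 0.889, 0.369, and 1.33 CPM were measured, equal to 16, 8, and 25 counts. The t2iLGöY libraries had 1.36, 1.41, and 1.01 CPM, and the TL2i libraries 1.81, 1.87, and 1.62 CPM. These 9 libraries hardly expressed the gene, each being at less than 2 CPM. NHSM-v cells had 2.76, 3.78, and 6.10 CPM and 4i/L/b cells 9.17, 6.15, and 7.54 CPM, also without overlap with primed cells. Log2 fold changes were -4.98 ± 0.40 in LCDM (EPS), -4.42 ± 0.33 in t2iLGöY, -3.96 ± 0.28 in TL2i, -2.76 ± 0.31 in NHSM-v, and -1.91 ± 0.25 in 4i/L/b cells, and the largest adjusted p of these was 2.1e-05. The decrease was thus 31.5-fold in LCDM (EPS) and 3.76-fold in 4i/L/b cells. E-NHSM cells moved the other way, with 44.5, 45.7, and 60.2 CPM, all above the primed range, and an increase of 0.85 ± 0.19 on the log2 scale (adjusted p = 0.0028). TL-CDK8i libraries lay within the primed range at 20.95, 19.5, and 24.8 CPM, with a log2 fold change of -0.39 ± 0.21 (adjusted p = 0.153). That decrease passed without primed J1 (-0.47, adjusted p = 0.0424) and against letter K alone (-0.58, adjusted p = 0.0102). PMAIP1 was the member with the clearest order of levels, since all neighbours were separated except primed and TL-CDK8i, and t2iLGöY and LCDM (EPS). The 5 protocols with lower PMAIP1 were those whose summed pluripotency markers were at 196 to 652 CPM, against 1993 CPM or more in the other groups, and the part of this was not tested.

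BCL2L11, which encodes BIM, was higher in 5 protocols. Primed libraries ranged from 26.0 to 38.7 CPM with a median of 32.8 CPM. NHSM-v libraries had 86.5, 77.1, and 98.1 CPM, and TL-CDK8i libraries 85.9, 93.9, and 80.6 CPM. The 4i/L/b libraries had 66.1, 58.1, and 59.5 CPM and the E-NHSM libraries 56.6, 55.3, and 52.2 CPM. These 12 libraries all exceeded the highest primed library. Increases were 1.39 ± 0.15 on the log2 scale in TL-CDK8i (2.61-fold, adjusted p = 4.7e-06), 1.38 ± 0.16 in NHSM-v (2.60-fold, 2.9e-06), 0.87 ± 0.16 in 4i/L/b (3.6e-04), and 0.75 ± 0.16 in E-NHSM cells (0.0020). All 4 passed in every alternative. The t2iLGöY libraries, with 48.8, 46.3, and 42.3 CPM, were also above the primed range, and the increase of 0.53 ± 0.18 (adjusted p = 0.020) was lost without t2iLGöY replicate 1 (0.0826), t2iLGöY replicate 2 (0.0545), or primed K3 (0.0537), and against letter J alone (0.119). TL2i libraries had 42.1, 42.4, and 42.4 CPM, higher than each primed library, yet the log2 fold change of 0.38 ± 0.16 did not pass (adjusted p = 0.0631). It passed in 8 alternatives, with adjusted p from 0.0085 to 0.0474. LCDM (EPS) cells, at 31.4 to 45.6 CPM, overlapped primed cells (0.28 ± 0.18, adjusted p = 0.203). Primed cells had the lowest mean of the 8 groups.

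BID links the death receptor branch to mitochondria once caspase-8 has cleaved it. Its level was 9.01 to 19.0 CPM in primed libraries, with a median of 13.96 CPM. E-NHSM libraries had 5.87, 6.44, and 5.76 CPM, and NHSM-v libraries 7.35, 4.63, and 8.52 CPM. Both groups were below every primed library. BID fell by 1.25 on the log2 scale in E-NHSM (SE 0.30, adjusted p = 0.0045), by 1.11 in NHSM-v (SE 0.32, 0.0081), and by 0.88 in 4i/L/b cells (SE 0.30, 0.022), where the values of 9.07, 5.54, and 9.48 CPM reached into the primed range. All 3 calls were lost against letter J alone (adjusted p = 0.0576, 0.0972, and 0.147), and that in 4i/L/b also without primed K1 (0.0501), 4i/L/b replicate 1 (0.0541), or 4i/L/b replicate 2 (0.117). TL-CDK8i cells had the highest levels at 18.7 to 21.7 CPM, overlapping the primed range (0.45 ± 0.23, adjusted p = 0.134), and passed against letter J alone (0.0407). In the RefSeq annotation, BID overlaps BCL2L13, another gene of the count tables. Whether the counting used strand is not given in the sources used here, so reads of the 2 genes may not be separated.

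BBC3, which encodes PUMA, was at 5.22 to 13.7 CPM in primed libraries, with a median of 10.99 CPM. TL-CDK8i libraries had 18.0, 15.0, and 14.7 CPM and TL2i libraries 16.3, 14.3, and 13.8 CPM, all above the primed range. Neither passed the test (0.56 ± 0.29, adjusted p = 0.132, and 0.50 ± 0.29, adjusted p = 0.168), and standard errors of 0.29 to 0.39 over the 7 comparisons limit what can be detected for this gene. The lowest levels, 6.56, 6.88, and 3.45 CPM, were those of LCDM (EPS) cells, with a log2 fold change of -0.86 ± 0.38 (adjusted p = 0.0669), which passed without primed J1 (0.0253), against letter K alone (0.0239), and with all groups in one fit (0.0122). All neighbours in the order of BBC3 levels overlapped.

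BIK, a BH3-only protein of the endoplasmic reticulum, was the least certain member. Counts ranged from 0 to 85 per library, and CPM in primed libraries from 0.606 to 7.63 with a median of 3.00. TL2i libraries had 0.439, 0.761, and 1.06 CPM, of which the 2 highest were within the primed range. The decrease of -2.22 ± 0.88 on the log2 scale passed barely (adjusted p = 0.0479) and was lost in 10 of the alternatives, with adjusted p up to 0.156. They include the removal of primed J1 (0.0619), J2 (0.0752), or K3 (0.101), and of each TL2i library (0.0847 to 0.156). One t2iLGöY library had no BIK count, which allows up to 3. Log2 fold changes of -1.99 ± 0.87 in 4i/L/b (adjusted p = 0.0686), -1.99 ± 1.16 in t2iLGöY (0.163), and -1.29 ± 0.85 in NHSM-v cells (0.208) did not pass. The 4i/L/b value passed without primed J3 (0.0446) or K1 (0.0282), against letter J alone (0.0452), with DESeq2 (0.0315), and with all groups in one fit (0.0467), under which the t2iLGöY value passed too (0.0351). All neighbours overlapped.

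The 6 primed libraries carry the letters J and K in their column names, 3 each, and the labels list 2 sets that could not be matched to the letters. For 3 members all K libraries exceeded all J libraries. The share of all genes separated in this way was not computed, so the 3 are not a result about the members. BCL2L1 averaged 54.6 CPM in J and 72.7 CPM in K, MCL1 505 and 639 CPM, and PMAIP1 23.5 and 32.2 CPM. The spread between letters, up to 1.37-fold for these 3 genes, enters each comparison with primed cells, and what the letters stand for is not given in the sources used here.

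TL-CDK8i and TL2i cells share tamoxifen, LIF, and the active STAT3-ERT2, and differ in their kinase inhibitors. In the direct comparison of the 3 libraries of each, 6 of 10 members were higher in TL-CDK8i cells (31.5% of all genes) and 0 were lower (33.3%), also at an unadjusted p of 0.05 and with DESeq2. The median log2 difference of the 10 members was 1.06, against -0.04 over all 13729 genes tested. PMAIP1 differed most, by 3.59 ± 0.21 on the log2 scale or 12.1-fold (edgeR, adjusted p = 6.4e-09), with 19.5 to 24.8 CPM in TL-CDK8i and 1.62 to 1.87 CPM in TL2i cells. BCL2L1 differed by 1.35 ± 0.11 (adjusted p = 2.3e-07), BCL2L11 by 1.02 ± 0.10 (8.2e-07), and BID by 1.10 ± 0.18 (9.5e-05). In all 6 higher members, BCL2 and BIK included, the lowest TL-CDK8i library exceeded the highest TL2i library. These 6 were called on the same libraries, so the separation adds no support to the calls. The share of all genes separated in this way was not computed. BCL2 was 4.03-fold higher, with 5.59 to 10.5 CPM against 0.995 to 2.83 CPM (2.01 ± 0.37, adjusted p = 3.1e-04). BIK was 4.11-fold higher (2.04 ± 0.51, adjusted p = 0.0032), at 1.497 to 4.72 CPM against 0.439 to 1.06 CPM, a difference that was not called with all 8 groups in one fit. Anti-apoptotic and pro-apoptotic members were thus both among the higher genes. The remaining members had log2 differences of 0.34 ± 0.14 for BAK1 (adjusted p = 0.0502), 0.08 ± 0.16 for BBC3 (0.695), 0.05 ± 0.10 for BAX (0.697), and -0.12 ± 0.09 for MCL1 (0.234). BAK1 was called higher with DESeq2, under other filters on low counts, and without TL2i replicate 3 or TL-CDK8i replicate 1, and MCL1 was called lower with library totals alone. The summed pluripotency markers were 1993 to 2746 CPM in TL-CDK8i and 571 to 652 CPM in TL2i cells. Summed mesenchymal markers were 8588 to 11118 CPM and 2964 to 5794 CPM, with 4 of 9 called higher in TL-CDK8i cells and 1 lower. Of 10 neural markers, 1 was called higher and 7 lower. The part of these markers in the 6 differences was not tested.

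Among the 7 protocols, without the primed libraries, all 10 members passed edgeR's test of any difference, as did 90.9% of the 14699 genes tested. The largest adjusted p was that of BIK, at 0.019, followed by BCL2, at 3.0e-04. Passing this test was thus the usual outcome for a gene in these data. Over the means of the 8 groups, the pairs of members whose log2 levels moved most alike were BAK1 with PMAIP1 (Pearson's r = 0.87 over 8 groups) and BAX with BAK1 (r = 0.84). All groups come from 1 clone, and these correlations are descriptions without a test.

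The levels of binding partners were set against each other within each library, as the log2 ratio of counts with an offset of 0.5. Ratios of mRNA counts are not ratios of proteins, and the values have no zero that means balance, so only differences between groups can be read. The ratio of MCL1 to its antagonist PMAIP1 was 4.12 to 5.05 in primed libraries. It reached 8.77, 9.90, and 8.22 in LCDM (EPS) libraries, 7.70, 7.79, and 8.17 in t2iLGöY libraries, and 7.92, 7.71, and 7.86 in TL2i libraries. NHSM-v (5.62 to 6.66) and 4i/L/b libraries (6.32 to 6.76) were above the primed range as well. E-NHSM libraries lay below it at 2.83, 3.03, and 2.63, and TL-CDK8i libraries overlapped it at 4.13, 4.31, and 3.96. Of these 5 protocols above the primed range, 4 had lower MCL1 mRNA, and PMAIP1 was lower by more than MCL1 in each of them. The ratio of BCL2L1 to BAK1 was 0.77 to 1.83 in primed libraries, and higher in t2iLGöY (2.05 to 3.14), LCDM (EPS) (2.39 to 2.63), and TL-CDK8i libraries (2.28 to 2.41). E-NHSM libraries were below, at 0.09 to 0.62, while NHSM-v, 4i/L/b, and TL2i libraries overlapped the primed range. The ratio of BCL2 to BAX was above the primed range of -4.96 to -2.61 in t2iLGöY (-2.09 to -0.98) and LCDM (EPS) libraries (-1.62 to -0.84). The ratio of BCL2 to BCL2L11 averaged -5.14 ± 1.01 in NHSM-v (SD, n = 3) and -3.27 ± 1.02 in primed libraries (SD, n = 6), with the highest NHSM-v library at -4.50 just below the lowest primed library at -4.43. For E-NHSM no ratio with BCL2 is given, because 1 of its libraries had no BCL2 count.

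**Figure D3:**
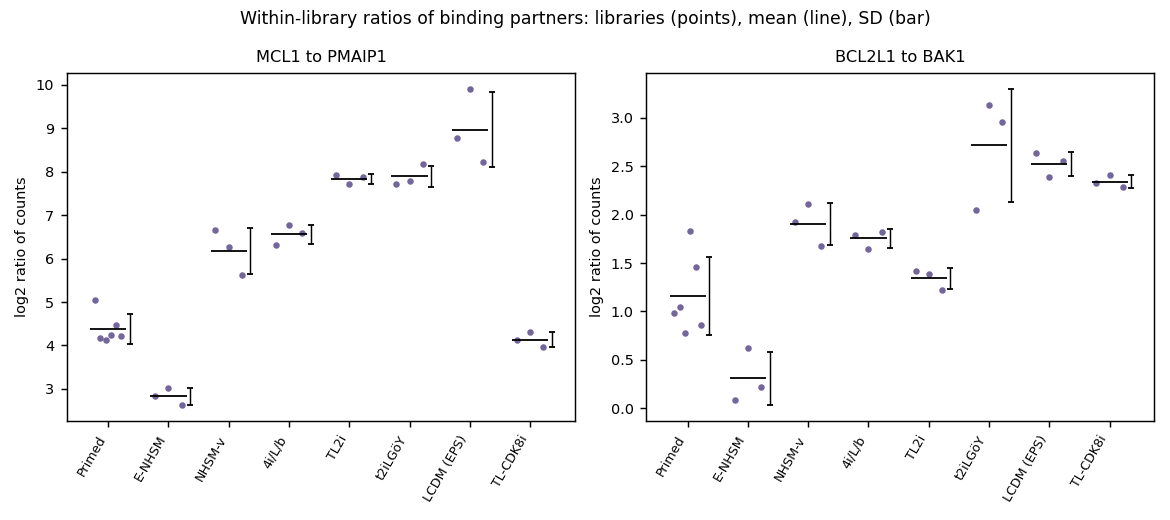
Log2 ratio of the counts of binding partners within each library (points; line, group mean; bar, SD), MCL1 to PMAIP1 on the left and BCL2L1 to BAK1 on the right, by group. The ratio of MCL1 to PMAIP1 is between 7.70 and 9.90 in the TL2i, t2iLGöY, and LCDM (EPS) libraries against 4.12 to 5.05 in primed libraries, and E-NHSM libraries are lowest in both panels.

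The remaining genes of the family were read from a list of 13, all found in the count tables. In t2iLGöY cells 11 of them were tested, with 5 higher and 5 lower, against 27.1% and 27.2% of all genes, and in each other comparison 10 were tested. BMF, a BH3-only gene linked to anchorage to the matrix, was higher in all 7 protocols. It averaged 14.5 ± 3.32 CPM in primed cells (SD, n = 6), 125 ± 12.8 CPM in t2iLGöY, and 87.6 ± 6.32 CPM in TL2i cells (SD, n = 3), and log2 fold changes went from 0.69 ± 0.24 in LCDM (EPS) to 3.14 ± 0.19 in t2iLGöY (adjusted p = 3.0e-09). BNIP3, a hypoxia-induced mitophagy receptor, was lower in 6 protocols, by up to -4.55 ± 0.26 in t2iLGöY, and higher in E-NHSM cells (0.73 ± 0.16, adjusted p = 0.0022). BCL2L12 was lower in 6 protocols, BOK, an effector-like member, was lower in 5 and higher in TL-CDK8i, and BCL2L13 was higher in 4. E-NHSM cells had 6 of 10 higher and 1 lower, against 11.1% and 15.1% of all genes, and a median log2 fold change of 0.72 over the list, the highest of the 7 protocols. The lowest, -0.60, was that of 4i/L/b cells, with 3 higher and 4 lower, against 26.6% and 29.0% of all genes.

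Downstream, 15 genes of the caspase and mitochondrial machinery were tested in each protocol. Between 1 and 3 were higher and between 1 and 6 were lower. Over all genes, between 11.1% and 28.2% were higher and between 15.1% and 30.6% lower in the 7 protocols, and these shares are also the background of the lists that follow. AIFM1 was lower in 6 protocols and DIABLO, an antagonist of inhibitors of apoptosis, in 5. DFFB, the caspase-activated DNase, was higher in 5, from 1.66 ± 1.38 CPM in primed cells to 12.6 ± 2.67 CPM in LCDM (EPS) cells. Of 5 or 6 tested inhibitors of apoptosis, 0 to 2 were higher and 0 or 1 lower in a protocol, and BIRC5, which encodes survivin and follows cell division, was lower in 4.

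In the death receptor branch, 8 or 9 genes were tested, with 0 to 4 higher and 1 to 5 lower in a protocol. CASP8, the initiator caspase of the death receptor branch and the enzyme that activates BID, was lower in all 7 protocols. Its level was 19.4 to 28.7 CPM in primed libraries. In LCDM (EPS) libraries it was 0.266 to 0.778 CPM, in TL2i libraries 1.17 to 1.76 CPM, and in TL-CDK8i libraries, the least reduced, 8.17 to 14.7 CPM. The log2 fold changes ran from -5.59 ± 0.36 (adjusted p = 1.1e-08) to -1.25 ± 0.23 (adjusted p = 5.4e-04). CFLAR, the inhibitor of CASP8 activation, was higher in 4 protocols, and FADD, the adaptor, was lower in 4. TNFRSF10B, a TRAIL receptor, split the protocols, being higher in 4i/L/b, TL-CDK8i, NHSM-v, and TL2i cells and lower in LCDM (EPS) and t2iLGöY cells, from 2.52 ± 0.16 in 4i/L/b to -2.80 ± 0.38 in t2iLGöY.

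Of 7 tested transcription factors known to induce family members, between 0 and 2 were higher and between 0 and 6 lower, depending on the protocol. FOXO1, an activator of BCL2L11, fell in 6 protocols by 1.37 to 3.59 on the log2 scale. FOXO3, with the same target, was lower in 4 and higher in E-NHSM (0.97). Of 4 genes that control the turnover of MCL1 protein, 0 to 2 were higher and 1 or 2 lower in a protocol. The deubiquitinase USP9X, which stabilises it, was lower in 6 protocols by up to 1.38 on the log2 scale, and the ubiquitin ligase HUWE1 was lower in 4. TL-CDK8i cells, with a USP9X log2 fold change of 0.18 ± 0.10 (adjusted p = 0.17), were the exception. The lists describe directions of single genes and were not tested as sets. For the listed genes too, the share of all genes called in as many protocols was not computed.

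**Figure D4:**
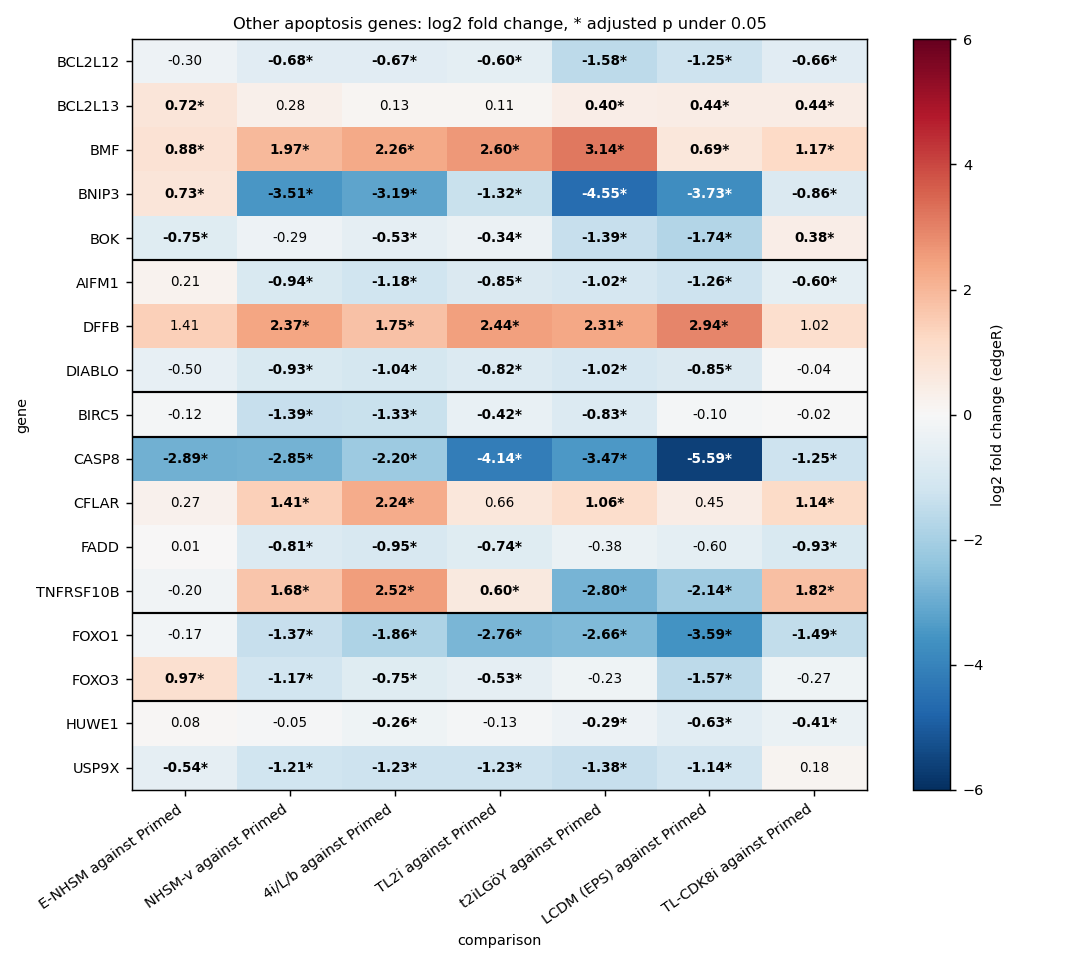
Log2 fold change against primed cells (columns, the 7 protocols) of other apoptosis genes (rows, separated by lines into other family members, caspase and mitochondrial machinery, inhibitors of apoptosis, death receptor branch, inducing transcription factors, and MCL1 turnover); an asterisk marks an adjusted p under 0.05. BMF is higher and CASP8 lower in all 7 columns, and BNIP3 and FOXO3 are higher with an asterisk only in E-NHSM cells.

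For each member, the genes whose mean log2 level over the 8 groups followed it most closely were sought among those whose mean log2 CPM was 3 or more. MCL1 was followed by KLF10 (r = 0.96) and VCPIP1 (0.92), PMAIP1 by SSR3 (0.98) and PSMA5 (0.97), and BCL2L11 by FAM65A (0.98) and PTER (0.97). The closest to BCL2 were LRRN3 (0.98) and SEC11C (0.96), and to BCL2L1 RTCB (0.95) and CAND1 (0.93). BAX was matched by KRT8 (0.98) and LPCAT4 (0.98), and BAK1 by NLE1 (0.99) and ORC6 (0.99). BBC3 went with KANK1 (0.96) and FAM84B (0.94), BID with PSD3 (0.94) and VRK2 (0.91), and BIK with TBPL1 (0.96) and RNPS1 (0.95). With 8 points and 9913 or 9914 candidate genes such values describe these groups only.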

How the data were processed

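The authors prepared directional mRNA libraries and sequenced single reads. They deposited tables of raw counts, in which each row is a gene symbol and each column a library. The submitters' processing notes name bcl2fastq, cutadapt, HISAT2, and HTSeq without versions, and the genome build, the annotation, and the use of strand are not given in the sources used here, so reads shared by overlapping genes were not separated here. Column names placed all 27 columns in a group. Primed columns show only their group and carry the letters J and K.

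edgeR 4.0.16 was run in R 4.3.3 (limma 3.58.1) for TMM-normalized CPM and the quasi-likelihood test. Only the groups compared entered a fit, over the genes kept by filterByExpr, with Benjamini-Hochberg adjustment over all genes tested and a threshold of 0.05. The methods text used here names no test for the RNA-seq counts. SE is the log2 fold change divided by the square root of its F statistic. Members and gene lists were chosen with earlier results of these data known. All members are named. Other genes are named when called in at least 4 of the 7 comparisons in 1 direction, at most 3 per list and direction, by mean log2 fold change. Some genes that this rule names are not reported here. None of the 36 replicate pairs agreed within sampling noise (chi-square per gene 3.98 or more).

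Alternatives were DESeq2 1.42.0, upper-quartile scaling, library totals alone, omission of the low-count filter, a minimum of 10 counts per library, a replicate block, all 8 groups in one fit, primed columns of letter J or K alone, and each library left out in turn. Comparisons with primed cells were in this way refitted up to 18 times. The procedure was tested on simulated counts. Levels were not compared between genes, since transcript lengths were not used here.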

Additional observations from a re-analysis of the deposited data

Results flagged for a closer look

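BAX in the primed library J1, at 59.5 CPM, stood apart from the other 5 primed libraries, at 36.2 to 43.2 CPM. Its gap to the nearest library was 0.698 of the group's range, above Dixon's critical value for 6 samples. It was the single case among the 10 members, and chance alone gives about 1 such case in 20 groups. Without J1, the BAX differences in TL2i and TL-CDK8i cells passed the threshold, at 0.44 (edgeR, adjusted p = 0.0083) and 0.52 (adjusted p = 0.0042) on the log2 scale. Groups of 3 libraries were not examined in this way.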

How the results depend on the processing

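Of the 29 called values of members against primed cells, 0 changed sign in any alternative, 21 were called in every alternative that tested them, and 8 were lost in at least 1. Of the 41 values not called, 18 passed in at least 1. Counts of called members stayed within 1.5 times except in 3 comparisons. E-NHSM had 5, and 3 with letter J alone. TL2i had 3, and 6 with all 8 groups in one fit, 5 with letter K alone, and 2 to 5 with 1 library left out, the 5 being without primed J3. TL-CDK8i had 3, and 5 with letter J or letter K alone, and 3 to 5 with 1 library left out, the 5 being without primed J1. The signs of 8 values near 0, none of them called, changed. BAX in E-NHSM was -0.06 with TMM, 0.0069 with upper-quartile scaling, 0.021 with library totals, 0.049 with letter K alone, and -0.12 to 0.060 with 1 library left out. BAX in 4i/L/b was -0.049 with letter J alone and -0.032 to 0.15 leaving out libraries. BCL2L1 in 4i/L/b was 0.029 with DESeq2, 0.0019 with upper-quartile scaling, 0.013 with library totals, 0.0018 without a filter, 0.0088 with 10 counts in every library, 0.18 with letter J alone, and -0.079 to 0.031 leaving out libraries. BCL2L1 in TL2i was 0.063 with library totals, 0.15 with letter J alone, and -0.12 to 0.0075 leaving out libraries. BID in LCDM (EPS) was 0.13 with letter J alone and -0.27 to 0.0087 leaving out libraries. BIK in LCDM (EPS) was 0.0088 with DESeq2, 0.094 with library totals, 0.00018 without a filter, 0.040 with the replicate block, 0.028 with letter K alone, and -0.25 to 0.37 leaving out libraries. Leaving out libraries gave -0.17 to 0.43 for BIK in E-NHSM and -0.66 to 0.17 in TL-CDK8i. The cause was not tested.

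Library totals alone moved the median of all genes by 0.13 in t2iLGöY and by 0.12 in TL2i and LCDM (EPS) against primed cells and by -0.12 between TL-CDK8i and TL2i. With at least 10 counts in every library, BIK was tested in no comparison, BCL2 was left out in 2 of the 7 against primed cells, and PMAIP1 was left out in LCDM (EPS). With the replicate block, 2 members were called in TL2i, where BIK was lost (adjusted p = 0.0758), 3 in TL-CDK8i, 4 in LCDM (EPS) and 4i/L/b, and 5 in t2iLGöY, E-NHSM, and NHSM-v, and it changed no other call. Replicate numbers only name the libraries, since deviations of same-numbered libraries correlated at -0.12 to 0.050 over 45 pairs. BCL2 and BIK had at most 209 and 85 counts in a library, and the largest standard errors.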
